A study of Homo sapiens with 12 samples.

Results

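Long non-coding RNAs are long transcripts that are not translated into protein, and 5 of them were followed here through 12 RNA-seq libraries of human lung cancer cell lines: MALAT1, NEAT1, TUG1, H19 and MEG3. They were chosen by name, as rows of a table of 22506 genes, and 4 of the 5 had reads. The choice was made with their share of the reads already known, so their levels are given as a description without a test. The labels name the lines H1703, H1299, CHAGO and CALU, and the series title calls them lung squamous cell carcinoma lines. Each was sequenced as parental cells, which the labels call adherent, as tumor-initiating cells (TICs, those able to start a new tumor), and as TICs with knockdown of PRKCI, the gene of the atypical protein kinase C iota. The sources used here do not say how TICs were grown or how the knockdown was made, and parental cells with the knockdown, named in the series design, were not analysed here. With 1 library per line and state, the 4 lines are the replicates of a state (n = 4). The main fit takes out the level of each line, so its p-values weigh a state difference against its variation from line to line.

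MALAT1 is an abundant RNA of nuclear speckles, the bodies in which splicing factors collect. NEAT1, its neighbour on chromosome 11, is made as a short polyadenylated and a long isoform, and the long isoform is the scaffold of paraspeckles, nuclear bodies that hold RNA-binding proteins. TUG1 is found in nucleus and cytoplasm and has been linked to Polycomb repression. H19 and MEG3 are imprinted, expressed from the maternal copy, and lie next to the growth genes IGF2 and DLK1, which are expressed from the paternal copy. H19 is also the precursor of the miRNA miR-675.

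MALAT1 and the long NEAT1 isoform share an unusual 3′ end: RNase P cuts it instead of the usual cleavage and polyadenylation, and a genome-encoded run of A pairs with U-rich stretches as a triple helix. The sequence is shown because it sets these members apart from the other long non-coding RNAs in how their ends are made. Both stretches come from the GENCODE release 29 transcripts, written in DNA letters 5′ to 3′. Capitals mark U-rich and A-rich motifs of 10 bases only. Most of the longest A run of MALAT1 (13 bases) is therefore in lower case. In NEAT1 only 1 U-rich motif is marked, as none with 1 mismatch was found in the 60 bases upstream of it.
MALAT1 (bases 8268 to 8355 of a transcript of 8708): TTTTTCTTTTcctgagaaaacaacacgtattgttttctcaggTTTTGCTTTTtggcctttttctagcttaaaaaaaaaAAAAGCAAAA
NEAT1 (bases 22693 to 22743 of a transcript of 22743): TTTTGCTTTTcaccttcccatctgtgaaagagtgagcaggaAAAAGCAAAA
The NEAT1 stretch ends the annotated transcript, and 353 annotated bases follow the MALAT1 stretch. The last 10 bases of NEAT1, AAAAGCAAAA, and their reverse complement, TTTTGCTTTT, were then searched on the transcript strand of all lncRNA genes, with the U-rich motif first and both within 150 bases. The pair was found in 2 of 16066 genes (0.0124%), NEAT1, from which it was taken, and MALAT1. The first capitals of the MALAT1 stretch differ from the U-rich motif at 1 base.

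Promoters are shown for the member with the highest level and for the imprinted members, which had reads in few libraries or in none. Each runs from 250 bases before to 50 after the start in RefSeq (GRCh38.p14), with CG dinucleotides in capitals.
MALAT1 promoter, chr11:65497488-65497787, plus strand: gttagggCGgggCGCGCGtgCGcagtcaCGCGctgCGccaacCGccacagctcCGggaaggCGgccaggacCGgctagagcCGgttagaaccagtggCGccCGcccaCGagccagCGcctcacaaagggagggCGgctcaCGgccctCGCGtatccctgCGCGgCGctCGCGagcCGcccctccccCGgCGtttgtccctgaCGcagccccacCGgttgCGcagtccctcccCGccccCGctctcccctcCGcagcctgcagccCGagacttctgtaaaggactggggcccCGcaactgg
H19 promoter, chr11:2001217-2001516, minus strand: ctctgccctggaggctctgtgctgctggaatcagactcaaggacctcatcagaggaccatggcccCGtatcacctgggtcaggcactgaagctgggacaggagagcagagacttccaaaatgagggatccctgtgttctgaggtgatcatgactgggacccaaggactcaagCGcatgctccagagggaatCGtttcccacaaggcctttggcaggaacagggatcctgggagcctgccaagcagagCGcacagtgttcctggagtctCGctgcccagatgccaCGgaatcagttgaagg
MEG3 promoter, chr14:100825858-100826157, plus strand: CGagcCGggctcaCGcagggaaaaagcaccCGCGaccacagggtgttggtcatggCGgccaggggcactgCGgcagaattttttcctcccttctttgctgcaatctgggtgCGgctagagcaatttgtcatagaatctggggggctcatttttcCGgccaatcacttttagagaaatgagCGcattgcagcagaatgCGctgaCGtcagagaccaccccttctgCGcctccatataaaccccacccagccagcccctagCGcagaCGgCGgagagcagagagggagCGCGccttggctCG
The MALAT1 window held 37 CG dinucleotides, more than 88.7% of 35116 RefSeq promoter windows, whose median was 14. The TUG1 window, chr22:30969015-30969314 on the plus strand, held 28 CG, the MEG3 window 19 and the H19 window 6. TATAAA, which 11.5% of the windows held on either strand, was absent from the first MALAT1 window and from the H19 and TUG1 windows and present in that of MEG3. A second MALAT1 start, further into the gene, had 14 CG and TATAAA. The 1 H19 start in this reference lies upstream of the miR-675 sequences (chr11:1996768 to 1996822). Any H19 start nearer to miR-675 was not examined, so the H19 count and the absence of TATAAA hold for this window only. These counts describe letters in the reference and not the methylation or use of a promoter in these lines.

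The libraries held 21.2 to 91.8 M counted reads (M, mega). Depth followed the line, with 21.2 to 36.1 M in H1703 and H1299 and 63.8 to 91.8 M in CHAGO and CALU. PRKCI, counted as a check of the labels, was lower in the knockdown TICs than in the TICs of each of the 4 lines (edgeR log2 fold change −3.15 ± 0.37 SE, adjusted p = 0.0489). Its call was lost in 8 of the 14 alternative settings, including each run with 1 line left out. The 7 squamous markers summed to at most 3.57 CPM (reads per 1 M library reads) in H1703, to 6.66 to 42.7 CPM in H1299, to 2.47 to 41.1 CPM in CALU and to 26.7 to 120 CPM in CHAGO. The 5 epithelial markers summed to 0.195 to 1.70 CPM in H1703 and to 1518 to 1870 CPM in CHAGO. The squamous sum in H1299 was almost all SOX2, with TP63 at 0 to 0.14 CPM and the 5 other squamous markers at 0. In CALU the 4 lung adenocarcinoma and alveolar markers summed to 5.08 CPM in parental cells, 48.5 CPM in TICs and 13.6 CPM in knockdown TICs. The squamous ones summed to 5.25, 41.1 and 2.47 CPM in the same order, and in both TIC libraries this sum was almost all TP63. Markers of the labelled carcinoma type were thus at or near 0 in H1703, rested on 1 gene in H1299 and were highest in CHAGO. In CALU they rested almost wholly on 1 gene in both TIC libraries and stood beside adenocarcinoma markers. The libraries are bulk, so fewer cells of a type and less RNA per cell cannot be told apart.

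MALAT1 had the most reads of the members in each of the 12 libraries and the gene with the most reads of all in 7 of them. In H1703 it took 1.56% of the reads in parental cells, 4.25% in TICs and 3.78% in knockdown TICs. In H1299 it took 1.07%, 1.29% and 1.26% in the same order. H1703 was the line with the highest share in each state, and its TIC library gave 1 read in 24 to this single gene.

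In CHAGO the MALAT1 share was 0.858% in parental cells, 0.800% in TICs and 0.754% in knockdown TICs. In CALU it was 0.650%, 1.16% and 1.17%. The 3 CHAGO libraries lay close together, while in CALU both TIC libraries stood above the parental one, which had the lowest share of the 12 at 1 read in 154. Counting error was small beside these gaps: the exact 95% interval of the H1703 TIC share was 4.24 to 4.26%, for counting error only.

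Where MALAT1 was not first, it ranked 2 or 3 by reads. The genes above it at the top were SLC38A2, an amino acid transporter, in CHAGO TICs and knockdown TICs, ACTB in CALU parental cells, FN1, the matrix protein fibronectin, in CALU TICs (3.57% of reads), and MMP1, a collagenase, in CALU knockdown TICs. MALAT1 made up 89.8 to 97.2% of the reads of the 5 members, which together took 0.693 to 4.38% of a library.

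By state, the MALAT1 share was 1.04 ± 0.392% in parental cells, 1.88 ± 1.60% in TICs and 1.74 ± 1.38% in knockdown TICs (mean ± SD, n = 4 lines). The lines spread widely within each state, and the states overlapped. By line it was 3.20 ± 1.44% in H1703, 1.20 ± 0.117% in H1299, 0.993 ± 0.298% in CALU and 0.804 ± 0.0520% in CHAGO (n = 3 states each). CALU overlapped both of its neighbours in that order, while the lowest H1703 library (1.56%) stood above the highest H1299 library (1.29%).

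**Figure D1:**
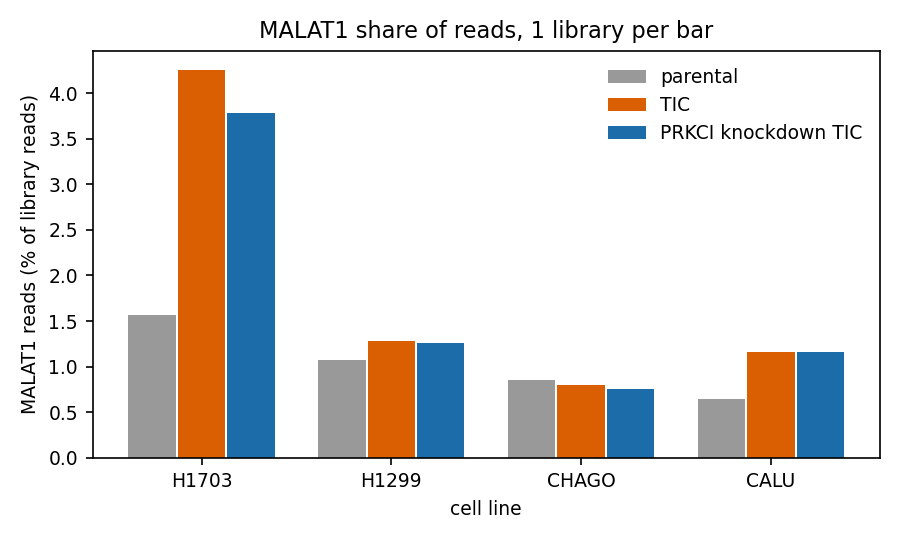
MALAT1 reads as a percent of all counted reads (vertical axis) in each cell line (horizontal axis), with 1 bar per library and 1 color per state. The H1703 TIC (4.25%) and knockdown TIC (3.78%) libraries stand above the other 10, which lie between 0.650 and 1.56%.

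TICs were compared with parental cells, the question being which genes differ with the tumor-initiating state. On CPM scaled with edgeR's TMM factors, MALAT1 was higher in the TICs of 3 of 4 lines. The read share of TICs was 2.72 times the parental share in H1703, 1.79 times in CALU, 1.20 times in H1299 and 0.932 times in CHAGO. The fitted difference was 0.62 ± 0.24 on the log2 scale (SE), a 1.54-fold higher level. It missed the threshold of an adjusted p of 0.05 over all 14008 tested genes (unadjusted p = 0.0266, adjusted p = 0.348, edgeR), and it was 0.34 without H1703. No member was called, against 0.0286% of all genes in this comparison. A higher fold change than that of MALAT1 was fitted for 21.1% of all genes.

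Markers of other cell types also differed between the libraries of CALU and H1703, the lines with the highest TIC to parental ratios of MALAT1 and NEAT1. In CALU the adenocarcinoma and alveolar markers summed to 5.08 CPM in parental cells, 48.5 CPM in TICs and 13.6 CPM in knockdown TICs. TP63, a squamous marker, had 2.88, 40.9 and 2.41 CPM. The 3 endothelial markers, of which CDH5 was at 0 and nearly all reads were PECAM1, summed to 2.44, 40.9 and 9.998 CPM, and the 5 fibroblast markers, mainly COL1A1, to 583, 1326 and 343 CPM. These sums were highest in the TICs and lower after knockdown. NEAT1 in CALU had the same order (174, 493 and 326 CPM), while the MALAT1 share was level between TICs and knockdown TICs. The epithelial sum (334, 185 and 116 CPM) and the mesenchymal sum (3679, 2213 and 1236 CPM) of CALU were highest in parental cells. In H1703 the endothelial sum was 0 and the fibroblast sum at most 1.65 CPM. The leukocyte sum of H1703 was all CD68, a lysosomal protein also made outside the myeloid lineage, at 351, 641 and 817 CPM, with PTPRC, CD3E and CD14 at 0. The leukocyte sum was also higher in TICs than in parental cells in the other lines. It was 281, 584 and 560 CPM in H1299, 206, 245 and 218 CPM in CALU and 1.25, 95.3 and 143 CPM in CHAGO. The part of these genes in the MALAT1 and NEAT1 values was not tested.

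Knockdown of PRKCI left the MALAT1 share close to that of the TICs. It was 0.889 times the TIC share in H1703, 0.978 times in H1299, 0.943 times in CHAGO, and in CALU the shares were 1.16% before and 1.17% after. The fitted difference was −0.06 ± 0.24 (adjusted p = 0.996, edgeR), an error that does not show equal levels. None of the members was called between knockdown TICs and TICs, where 0.0143% of all genes were. Against parental cells, knockdown TICs differed in MALAT1 by 0.56 ± 0.24 (unadjusted p = 0.0395, adjusted p = 0.440, edgeR), or by 0.35 without H1703, and again no member was called, against 0.0357% of all genes. The 3 comparisons share libraries, so these values do not support each other.

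NEAT1 had far fewer reads than its neighbour. In H1703 it had 299 CPM in parental cells, 793 CPM in TICs and 869 CPM in knockdown TICs. In CALU it had 174, 493 and 326 CPM in the same order. In both lines the TICs lay far above the parental cells, with 2.66 and 2.83 times the share.

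The other lines did not show such a gap. NEAT1 had 440 CPM in H1299 parental cells, 429 CPM in TICs and 627 CPM in knockdown TICs. In CHAGO it had 325, 307 and 291 CPM. H1299 TICs were close to their parental cells and only the knockdown TICs stood higher, while the CHAGO libraries were nearly level. By state NEAT1 had 310 ± 109 CPM in parental cells, 505 ± 207 CPM in TICs and 528 ± 272 CPM in knockdown TICs (SD, n = 4), and the states overlapped.

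The fitted NEAT1 difference between TICs and parental cells was 0.72 ± 0.31 on the log2 scale (unadjusted p = 0.0420, adjusted p = 0.397, edgeR), and 0.42 without CALU. On TMM-scaled CPM 3 of 4 lines were higher, but CHAGO only by 313 against 311 CPM, and by read share CHAGO was lower. An unadjusted p under 0.05 was reached by 11.8% of all tested genes here, so that MALAT1 and NEAT1 reached it is no call. After knockdown NEAT1 differed from TICs by −0.0053 ± 0.30 (adjusted p = 0.999, edgeR), with H1299 up by 0.55 and CALU down by 0.59 in log2 read share. Knockdown TICs and parental cells differed by 0.71 ± 0.31 (adjusted p = 0.446, edgeR), or by 0.44 without H1703.

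TUG1 showed the narrowest range of the members with reads in every library, 226 to 582 CPM. It had 460, 445 and 566 CPM in the parental cells, TICs and knockdown TICs of H1703, and 488, 582 and 528 CPM in those of H1299. CHAGO had 568, 394 and 362 CPM. CALU had 257, 256 and 226 CPM, below each library of the other lines. By state TUG1 stood at 443 ± 133, 419 ± 135 and 420 ± 157 CPM (SD, n = 4).

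The fitted TUG1 differences were −0.05 ± 0.17 between TICs and parental cells (adjusted p = 0.951, edgeR), 0.0018 ± 0.17 between knockdown TICs and TICs (adjusted p = 0.999) and −0.04 ± 0.17 between knockdown TICs and parental cells (adjusted p = 0.952). Their direction depended on the scaling: TMM-scaled CPM were higher in the TICs of 3 of 4 lines and read shares in 1 of 4. CHAGO had the lowest ratio, with 0.694 times the parental share in its TICs.

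**Figure D2:**
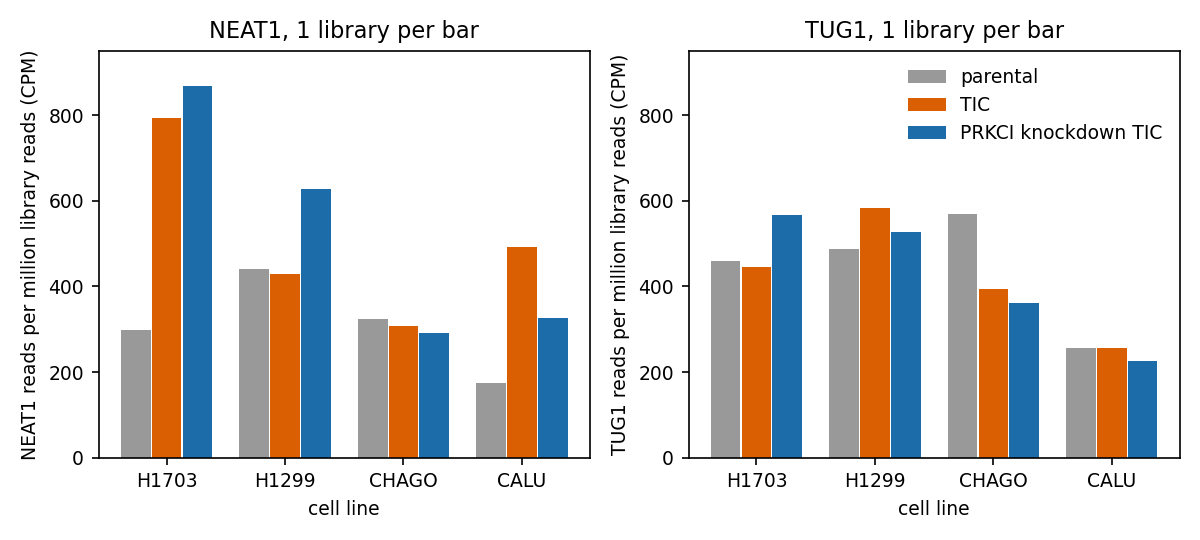
NEAT1 (left) and TUG1 (right) reads per 1 M library reads (vertical axes, both from 0) in each cell line, with 1 bar per library and 1 color per state. NEAT1 ran from 174 to 869 CPM and was higher in TICs than in parental cells in H1703 and CALU, while TUG1 stayed between 226 and 582 CPM.

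**Figure D3:**
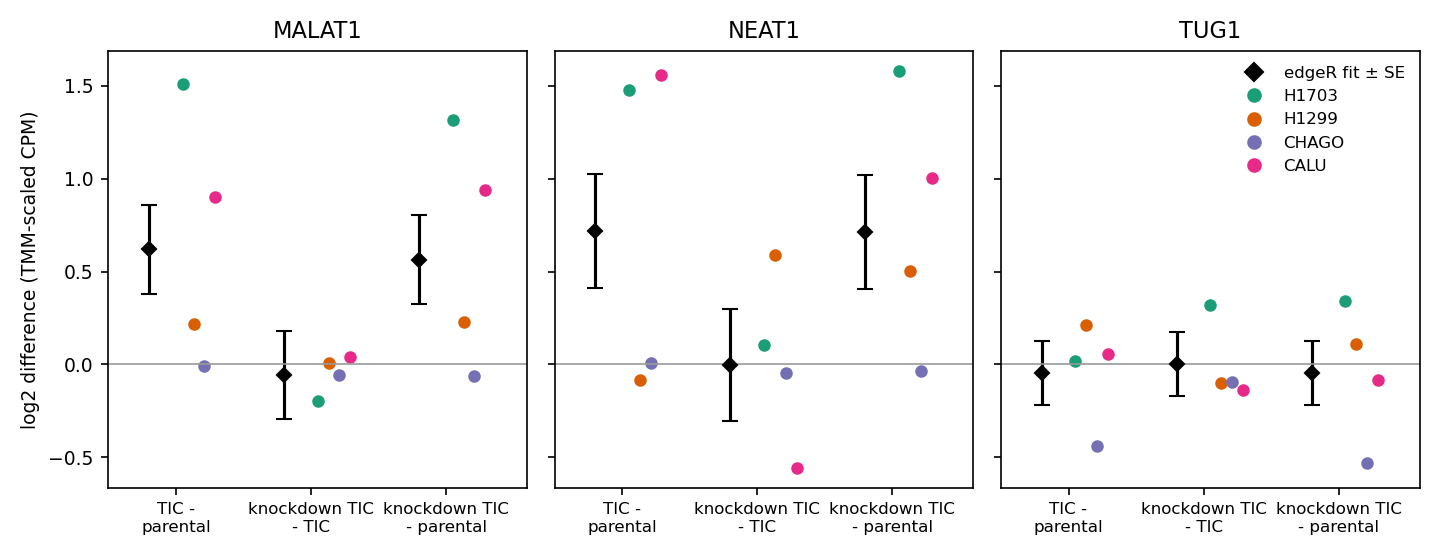
Log2 differences between states for MALAT1, NEAT1 and TUG1 (vertical axis) in the 3 comparisons, with the edgeR fit ± SE as diamonds and each line's difference in TMM-scaled CPM as circles. For MALAT1 and NEAT1 the H1703 and CALU circles lie above the others in the comparisons with parental cells, and the circles of CHAGO lie near 0.

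MALAT1 and NEAT1 could also be compared within a library, where depth and scaling cancel. There were 52.3 MALAT1 reads per NEAT1 read in H1703 parental cells, 53.6 in TICs and 43.5 in knockdown TICs. In CHAGO the ratio was 26.4, 26.1 and 25.9. In H1299 it was 24.3, 30.0 and 20.1, and in CALU 37.2, 23.6 and 35.7. CHAGO kept nearly one ratio through its 3 states and H1703 had the highest ratio in each state, while CALU TICs had fewer MALAT1 reads per NEAT1 read than the other CALU libraries. The state means were 35.1 ± 12.8, 33.3 ± 13.8 and 31.3 ± 10.4 (SD, n = 4) and differed by less than the spread between lines.

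**Figure D4:**
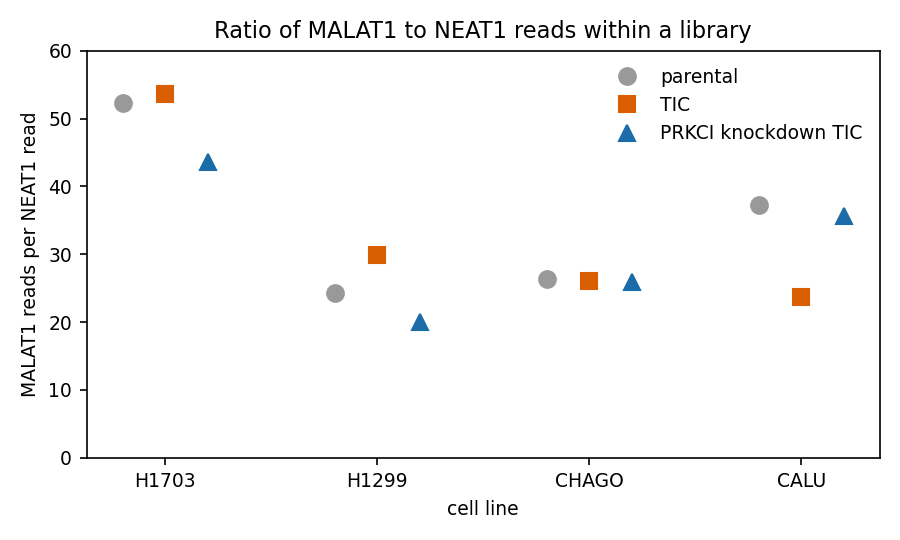
MALAT1 reads per NEAT1 read (vertical axis, from 0) in each cell line, with 1 point per library and 1 marker per state. The H1703 points lie between 43.5 and 53.6, and the 3 CHAGO points nearly coincide between 25.9 and 26.4.

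Levels of different genes were set on a common footing by dividing CPM by the transcript length in GENCODE release 29 (reads per kilobase per 1 M reads, RPKM). MALAT1 (8.708 kb) stood at 746 to 4883 RPKM. NEAT1 stood at 49.5 to 246 RPKM if reads were counted over the length of the short isoform (3.524 kb). It stood at 7.67 to 38.2 RPKM if they were counted over that of the long one (22.743 kb). TUG1 (7.469 kb) stood at 30.3 to 78.0 RPKM. MALAT1 was thus highest per length with either NEAT1 length, and the order of NEAT1 and TUG1 depended on the length taken. Which length was counted was not tested. Gene counts do not separate the isoforms, and the sources used here do not name the gene models used for counting. MIR612, a miRNA gene inside the long NEAT1 isoform that is listed as a row of its own, had 277 reads over the 12 libraries.

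The genes whose levels followed those of the members most closely were ranked by Pearson's r of log2 CPM among 6224 genes of mean log2 CPM 4 or more, over 12 libraries. Libraries of a line share its background, so the ranking was repeated after the mean of each line was removed. MALAT1 then had an r of 0.928 with KDM5B, a histone demethylase, 0.925 with UBE3B, a ubiquitin ligase, and 0.924 with NEAT1. Among the genes closest to NEAT1 were SLC37A3 (r = 0.932) and WHAMM (0.932), with MALAT1 at rank 4. TUG1 was closest to GPR125 (0.959), MBNL3 (0.926) and COG1 (0.925), and its r with MALAT1 was 0.228. With the line means left in, MALAT1 was closest to MIDN (0.942), NLGN2 (0.940) and TAOK1 (0.937), and NEAT1 came 50th at 0.835. H19 was closest to SCAF11 and RPAP3 (0.966 each) and C12orf41 (0.964) with the line means left in, a ranking that rests on the 3 CHAGO libraries. These are descriptions of 12 libraries of 4 lines.

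H19 was a gene of 1 line. CHAGO had 5444 H19 reads in parental cells (85.4 CPM), 3982 in TICs (47.8 CPM) and 3713 in knockdown TICs (47.2 CPM), which was 99.7% of the 13182 H19 reads in the series. H1299 had 0, 2 and 37 reads in the same order, CALU 0, 0 and 4, and H1703 0 in each. Outside CHAGO, H19 was thus at or near the limit of detection in all but the H1299 knockdown TICs, and 6 libraries had no read.

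Within CHAGO the TICs had 0.560 times the parental H19 share and the knockdown TICs 0.552 times, with no replicate of the line to test against. In the fit over all lines H19 differed by −0.26 ± 1.48 between TICs and parental cells (adjusted p = 0.969, edgeR), and by −0.61 without H1299. Between knockdown TICs and TICs it was 3.25 ± 1.48 higher (unadjusted p = 0.0587, adjusted p = 0.980, edgeR), a value that rests on the 37 reads of H1299 and the 4 of CALU and was 1.14 without H1299. Between knockdown TICs and parental cells the difference was 2.99 ± 1.52 (adjusted p = 0.528, edgeR), and 0.52 without H1299.

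**Figure D5:**
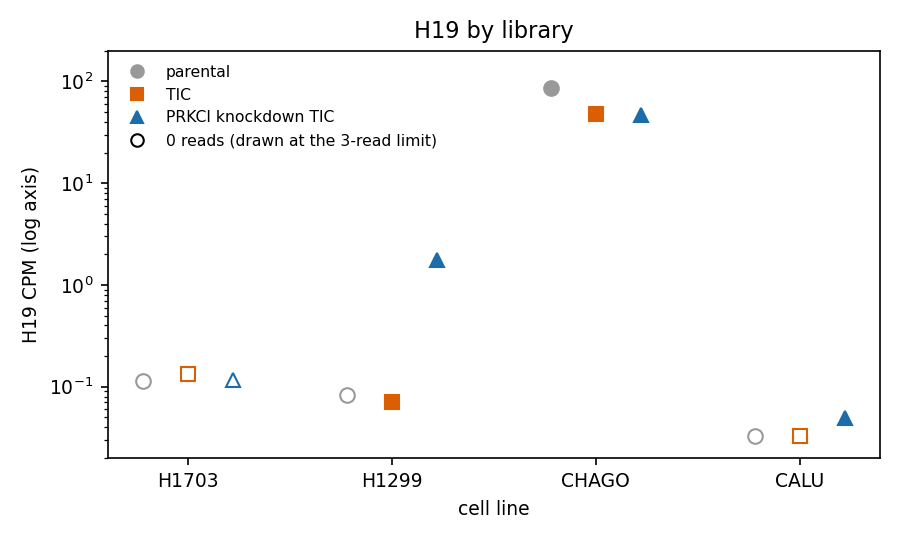
H19 reads per 1 M library reads (vertical log axis) by cell line, with 1 point per library. Open markers are libraries with 0 reads, drawn at the 3-read limit, and the 3 CHAGO points lie between 47.2 and 85.4 CPM, far above the others.

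The rows inside and next to H19 had few or no reads in CHAGO. Mature miR-675, cut from H19, is shown with the seed (bases 2 to 8) in capitals, in the RefSeq sequence (GRCh38.p14, minus strand).
hsa-miR-675-5p, chr11:1996800-1996822: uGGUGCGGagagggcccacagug
hsa-miR-675-3p, chr11:1996768-1996787: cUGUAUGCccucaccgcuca
MIR675 had a row and no read. Whether the libraries kept RNA of that length is not stated. How reads that overlap 2 genes were counted is not stated either. The empty row of MIR675, which lies inside H19, therefore does not show that its RNA was absent. IGF2, the paternally expressed growth factor next to H19, had 171 reads in all, each of them in H1299 TICs (6.08 CPM). INS-IGF2, listed beside it, had no read, and the limit on reads that overlap 2 genes holds for both. The adjacent TNNT3 and LSP1 had none, and MRPL23, a mitochondrial ribosomal protein gene that overlaps H19 in the annotation used for neighbours, had a mean of 0.622 CPM.

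MEG3 had no read in any of the 12 libraries. A count of 0 allows a level of up to 0.0327 to 0.142 CPM in a single library (3 reads), and of up to 0.00462 CPM over all libraries together. MEG3 was therefore not detected at this depth in any line or state, and no fold can be given. The miRNA gene inside it, MIR770, also had none. DLK1, its paternally expressed neighbour and a Notch-related growth regulator, had 97 reads, all in CHAGO, at 0.125 CPM in parental cells, 0.732 CPM in TICs and 0.356 CPM in knockdown TICs.

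Genes next to MALAT1, NEAT1 and TUG1 had far fewer reads than they did. FRMD8, on the NEAT1 side, had a mean of 31.4 CPM and was highest in H1703 (57.6 CPM) and lowest in CALU (13.95 CPM). LTBP3, on the MALAT1 side, had a mean of 3.94 CPM. MORC2, a chromatin-compacting ATPase next to TUG1, had 35.4 CPM and was highest in CHAGO at 56.8 CPM. The lines with the highest FRMD8 and the highest MALAT1 were the same, while those with the highest MORC2 and the highest TUG1 were not.

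Of 60 other long non-coding RNAs, 41 were matched to a row of the table, 39 of these had reads and 28 were tested. None approached MALAT1 in reads. Those with the highest mean CPM were ZFAS1 (445 CPM, listed as NCRNA00275), a snoRNA host, HCG11 (39.5 CPM), HCG18 (28.5 CPM), LINC00152 (27.8 CPM, listed as NCRNA00152), KCNQ1OT1 (25.8 CPM), the imprinted antisense RNA of KCNQ1, and CRNDE (18.4 CPM). ZFAS1 was thus the only one with about as many reads, not scaled by length, as NEAT1 (448 CPM) and TUG1 (428 CPM). No source used here says whether the counting used the strand, so reads of antisense genes such as KCNQ1OT1 cannot be told from those of their partners.

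Between TICs and parental cells 12 of the 28 were higher and 16 lower, and their median log2 fold change was −0.17 against −0.02 over all genes. None was called. At an unadjusted p under 0.05, 3 were lower and 0 higher, where 6.06% of all genes were lower and 5.73% higher. These 3 were CASC2 (−3.92 ± 1.41, adjusted p = 0.319), DLEU1 (−2.04 ± 0.75, adjusted p = 0.331) and DANCR (−2.01 ± 0.85, adjusted p = 0.390, edgeR, listed as KIAA0114). Each was lower in 4 of 4 lines. Between knockdown TICs and TICs 18 of the 28 were higher, with a median of 0.41 against −0.01 over all genes, and none was called.

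Of the genes of 40 paraspeckle proteins, 38 were tested, by their RNA only. Between TICs and parental cells 8 were higher and 30 lower, and none was called. Their median log2 fold change was −0.32 against −0.02 over all genes. At an unadjusted p under 0.05, 13 were lower and 2 higher, beside 6.06% and 5.73% of all genes. SFPQ, which with NONO forms the core of paraspeckles, differed by −0.62 ± 0.16 (adjusted p = 0.197) and HNRNPH1, a splicing factor, by −0.88 ± 0.21 (adjusted p = 0.197, edgeR). RBM3, a cold-induced RNA-binding protein, had the smallest p of the list (−1.64 ± 0.27, adjusted p = 0.100), and ZC3H6, a zinc finger protein, the next (1.53 ± 0.30, adjusted p = 0.142, edgeR). SFPQ, HNRNPH1 and RBM3 were lower and ZC3H6 higher in 4 of 4 lines.

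The genes of 30 proteins of nuclear speckles, where MALAT1 resides, gave a like count, with 9 higher, 21 lower and none called. Their median was −0.31 against −0.02 over all genes. At an unadjusted p under 0.05, 10 were lower and 1 higher, where 6.06% of all genes were lower and 5.73% higher. The splicing factors SRSF2 (−0.89 ± 0.18, adjusted p = 0.159) and SRSF1 (−0.87 ± 0.18, adjusted p = 0.173) and the speckle proteins PNN (−1.06 ± 0.23, adjusted p = 0.183) and BCLAF1 (−0.63 ± 0.14, adjusted p = 0.188, edgeR) had the smallest p, and each was lower in 4 of 4 lines. By fitted RNA level MALAT1 and NEAT1 were higher and most genes of the listed proteins lower, with none of these differences called. Protein was not measured. Under DESeq2, which called 4.02% of the genes it gave an adjusted p in this comparison, RBM3, ZC3H6, HNRNPH1, SFPQ, SRSF1, SRSF2, PNN, BCLAF1 and CASC2 were called in the same directions, and no member was. These genes were picked for the smallest p of their lists in the same counts, so their DESeq2 calls and shared directions add no support. DESeq2 calls over the whole lists were not counted.

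Of the 14 genes of RNase P and the other factors that make the 3′ ends shown above, 2 were higher in TICs than in parental cells. The other 12 were lower, and none was called. Their median was −0.53 against −0.02 over all genes. RPP14, an RNase P subunit, differed by −0.76 ± 0.28 (adjusted p = 0.334, edgeR). Between knockdown TICs and TICs 11 of the 14 were higher, with a median of 0.38 against −0.01 over all genes and none called. Of 11 tested RNAs in the list of other nuclear-retained or non-polyadenylated transcripts, 6 were higher in TICs and 5 lower, with none called. Their median was 0.43 against −0.02 over all genes.

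Among 16 tested genes of the imprinted network to which H19 and MEG3 belong, 11 were higher in TICs and 5 lower, with none called. Their median was 0.23 against −0.02 over all genes. IGF2R, the receptor that clears IGF2, had the smallest p (0.71 ± 0.32, adjusted p = 0.417, edgeR). Of 11 genes of Polycomb repressive complex 2, 4 were higher and 7 lower, with a median of −0.13 and none called. EZH2, its methyltransferase, differed by −1.30 ± 0.35 (adjusted p = 0.225) and JARID2, an accessory subunit, by 1.10 ± 0.30 (adjusted p = 0.227, edgeR). EZH2 was lower and JARID2 higher in 4 of 4 lines, and DESeq2 called both. Both were picked for their small p in this comparison, so this adds no support.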

How the data were processed

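RNA-seq was deposited for 12 libraries, 1 per line and state. The labels' protocols name Qiagen RNEasy for RNA and NuGen for libraries; the sources used here do not say how strand and polyadenylation were treated. CASAVA 1.4, TopHat 1.4, HTSeq 0.5.3p3 and build hg19 are named, without their roles, per the submitters' processing notes. The deposited raw table holds whole read counts per gene, used as the authors left them. The authors also deposited mode-normalized values, used here as a score: each is the count multiplied by 1 factor per library and rounded (100% of values within 1). Columns were joined to samples by title; the CALU knockdown column lacks a letter of its title.

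Shares are counts over library totals, and CPM is the share per 1 M reads. A count of 0 was given a limit of 3 reads. Genes passing edgeR 4.0.16 filterByExpr (14008) were scaled with TMM and fitted by its quasi-likelihood test (robust) with terms for state and line on all 12 libraries (6 residual degrees of freedom, R 4.3.3), two-sided, Benjamini-Hochberg adjusted over all genes tested, with a threshold of 0.05. The fit had a common dispersion of 0.489. Standard errors are the log2 fold change over the root of F. The line in the labels pairs the libraries: after state means were removed, libraries of 1 line correlated at 0.553 to 0.760 across genes (12 pairs), against −0.495 to −0.0601 for libraries of 2 lines (54 pairs). The fit was tested on simulated counts.

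The members and lists were chosen with earlier results of these data known. The rule for named genes takes the members, PRKCI, IGF2 and DLK1, the genomic neighbours, the 3 genes most like each member, the 6 most abundant other long non-coding RNAs with up to 4 of smallest p, and up to 4 of smallest p per other list; not all are printed. Of 229 list symbols, 194 matched as written and 12 through a synonym. Alternatives were DESeq2 size factors, library totals with and without the members, a filter of 1 CPM in 4 libraries or none, no line block, each line left out, the compared states only, DESeq2 1.42.0, limma 3.58.1 voom, and mode-normalized values (pseudocount 1). The reference annotation is GRCh38, not hg19, and gave names, gene order, lengths and sequences only.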

Additional observations from a re-analysis of the deposited data

Results flagged for a closer look

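In 2 states 1 library stood apart from the other 3 for MALAT1. H1703 had 42525 CPM in TICs, against a median of 11650 in the other lines, and 37818 CPM in knockdown TICs, against 11654. H19 stood apart in CHAGO in each of the 3 states, with 85.4 CPM in parental cells, 47.8 CPM in TICs and 47.2 CPM in knockdown TICs. These are descriptions, since the genes were chosen with their read shares known. The states of a line share its background, so a repeat across states adds no support. A group of 4 is picked out by chance in about 1 in 20 cases.

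NEAT1 moved in opposite directions after PRKCI knockdown in 2 lines, by 0.55 in H1299 and by −0.59 in CALU on the log2 scale of read share. With 1 library per line and state, the difference between lines was not tested.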

How the results depend on the processing

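No member was called under any of the alternatives. In TICs against parental cells MALAT1 stayed between 0.34 and 0.91 and NEAT1 between 0.42 and 1.001 (log2), with adjusted p of at least 0.182. Without the replicate block for line, MALAT1 was 0.91. Without H1703 it was 0.34 and without CALU NEAT1 was 0.42. The mode-normalized values moved the median of all genes by 0.14 (log2) in this comparison. The cause of the changes below was not tested.

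Signs turned for differences near 0. In knockdown TICs against TICs, NEAT1 was 0.0066 with no filter, 0.050 with no replicate block and 0.025 with the compared states only. TUG1 was −0.018 with library totals, −0.020 with totals without the members, −0.023 with voom, −0.00087 with the compared states only and −0.072 with mode-normalized values. Leaving out 1 line gave MALAT1 −0.089 to 0.010, NEAT1 −0.16 to 0.21 and TUG1 −0.10 to 0.055. In TICs against parental cells TUG1 was 0.095 with mode-normalized values and −0.13 to 0.11 with 1 line left out, and MORC2 lay between −0.36 and 0.0010 (the latter without CHAGO). In knockdown TICs against parental cells TUG1 was 0.024 with mode-normalized values and −0.18 to 0.14 with 1 line left out. H19 was 0.12 by DESeq2 in TICs against parental cells, and −0.69 with no replicate block and −0.41 by voom in knockdown TICs against parental cells. It fell below the filter without CHAGO or with the compared states only, and MEG3 was never tested.

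The number of called genes, 4 in TICs against parental cells, 2 in knockdown TICs against TICs and 5 in knockdown TICs against parental cells, was 509, 11 and 395 by DESeq2, 10, 1 and 6 by voom and 0 in each with no replicate block, with the compared states only or with mode-normalized values. The 1 CPM filter gave 4, 0 and 3 and DESeq2 size factors 4, 2 and 8. Leaving out 1 line gave 0 in the first comparison, 0 to 1 in the second and 0 to 2 in the third. The log2 ratio of NEAT1 to MALAT1, TIC less parental, was 0.08 and became −0.11 without CALU (−0.11 to 0.21).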
